A study of Mus musculus with 8 samples.

Results

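The glycoproteins described here are 8 genes of the extracellular matrix, taken by gene name: fibronectin (Fn1), periostin (Postn), the tenascins Tnc and Tnxb, the thrombospondins Thbs1 and Thbs2, and the SPARC family proteins Sparc and Sparcl1. All 8 had values in the deposited table, among 39290 gene names, and all 8 were among the 14418 genes tested, which had a mean of at least 1 FPKM (a fragment level corrected for feature length and for library depth). The libraries came from mouse lung, 4 titled model and 4 titled high dose. The series is titled for mice with idiopathic pulmonary fibrosis, in which scar replaces lung tissue, and for Platycodin D, a saponin of Platycodon root. The way the model was made, the dose, and the strain, age and sex of the mice are not given in the sources used here. They do not state either whether the 4 libraries of a group were separate animals. P-values therefore measure the spread between libraries, which may be technical. The codes in the descriptions are QH for the libraries titled model and QM for those titled high dose, initials that could be read the other way round. All directions below follow the titles and would turn if these were exchanged.

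Fibronectin is laid down early in a healing wound, and cells pull it into fibrils through integrins, the transmembrane receptors that link matrix to the cytoskeleton. The matricellular proteins, a group that includes tenascin-C, periostin, the thrombospondins and SPARC, are secreted into the matrix but mainly modulate how cells attach to it and how it is assembled. Most are abundant in development, low in resting adult tissue and raised again in wounds and in fibrotic lung. Tenascin-X, the product of Tnxb, is different in that it is a resident component of adult connective tissue.

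The labels name both lung tissue and a lung fibroblast line for every library. Sftpc, the surfactant protein C gene of alveolar type 2 cells, stood at 10199 ± 1944 FPKM (mean ± SD, n = 4) in model and 13300 ± 2460 FPKM in high dose. The endothelial gene Pecam1 had 219 ± 22.9 and 213.9 ± 21.2 FPKM. Thus epithelial and endothelial transcripts were abundant in libraries that are also labelled as fibroblasts. Column sums of FPKM were 845852 to 1249864, and the depth in reads is unknown. Low values placed the relative depth of the libraries between 1.00 and 1.33. Rows without a gene name took 50.02% to 65.2% of a library's sum, and the highest row alone took 6.17% in model replicate 4 and 41.5% in high dose replicate 2.

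The comparison of high dose with model asks how the matrix transcripts of the fibrotic lung stood under the treatment. Of the 8 glycoprotein genes 6 rose with high dose, the limma adjusted p being under 0.05: Fn1, Postn, Tnc, Thbs1, Sparc and Sparcl1. Among all tested genes 5.86% were called higher and 10.1% in either direction. Tnxb and Thbs2 did not pass. By limma 0 of the 8 were lower at an adjusted p under 0.05, where 4.27% of all tested genes were called lower. At an unadjusted p under 0.05 also 0 of the 8 were lower by limma. The share of all tested genes at that looser threshold is not given. The same 6 genes had libraries that did not overlap between the groups, every high dose value lying above every model value, which was so for 11.3% of tested genes, while the reverse was so for 6.46%. The median log2 fold change of the 8 was 0.97 and that of all tested genes was 0.04. A positive log2 fold change means a higher value in high dose. It was taken on log2(FPKM + 1), so changes of low genes are understated.

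**Figure D1:**
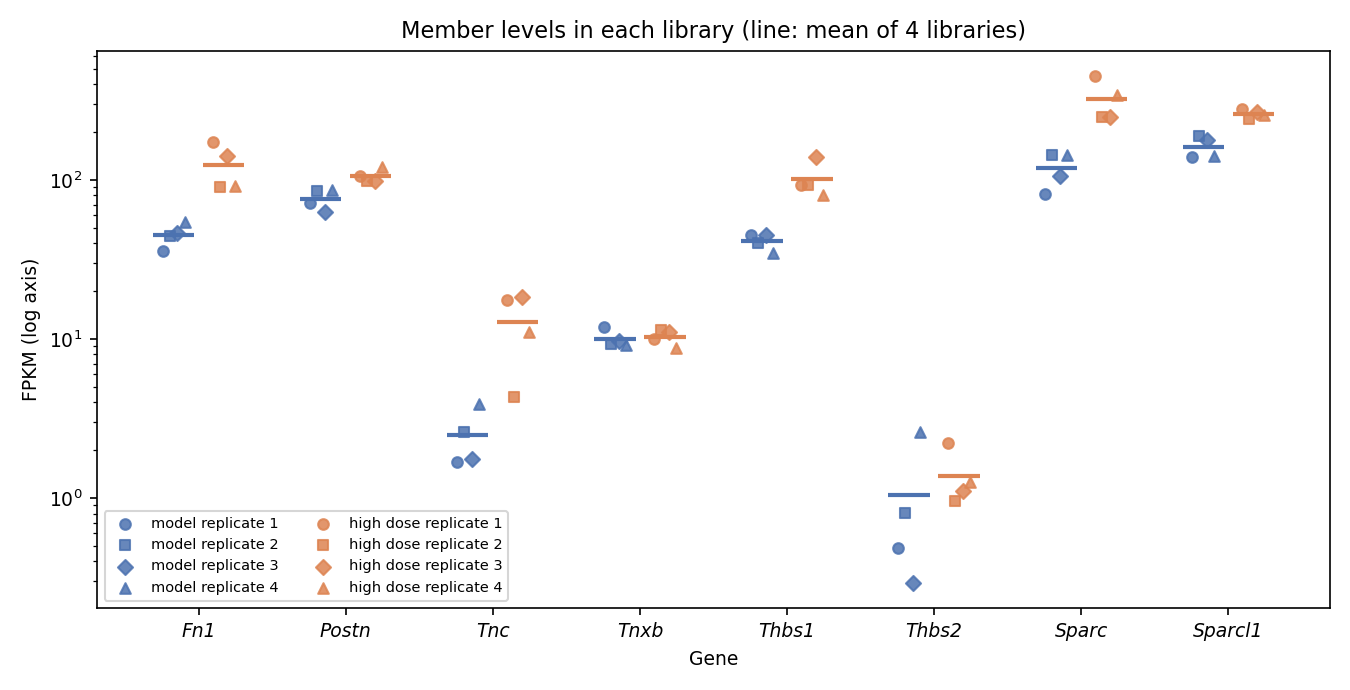
FPKM (log axis) of the 8 genes in each of the 4 model (blue) and 4 high dose (orange) libraries, with marker shape giving the replicate number and lines the group means. The colours are separate in 6 genes and mixed in Tnxb and Thbs2, where model replicate 4 holds the highest Thbs2 value at 2.60 FPKM.

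Fn1 encodes fibronectin, the adhesive glycoprotein that binds integrins, collagen and heparan sulfate. Its level was 35.8, 44.2, 46.4 and 54.6 FPKM in model replicates 1 to 4 and 172, 90.3, 140.9 and 91.5 FPKM in high dose replicates 1 to 4. The high dose libraries fell into a higher and a lower pair, and the lower pair still lay above every model library. The group means were 45.2 ± 7.71 and 124 ± 40.0 FPKM (SD, n = 4 each), a ratio of 2.73. The log2 fold change was 1.39 ± 0.22 (SE, limma adjusted p = 0.00884), with a 95% interval of 0.88 to 1.90. The table holds 1 value per gene, so the plasma and cellular splice forms of fibronectin were not told apart.

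Postn encodes periostin, a secreted protein that binds collagen and integrins and helps the protease Bmp1 act on the crosslinking enzyme lysyl oxidase. Model libraries had 71.9, 85.2, 62.9 and 86.0 FPKM and high dose libraries 105, 98.3, 98.3 and 121 FPKM. The gap between the groups was narrow: the highest model value, 86.0 FPKM, lay close under the lowest high dose value. The means were 76.5 ± 11.1 and 106 ± 10.7 FPKM (SD, n = 4 each), a ratio of 1.38 and a log2 fold change of 0.47 ± 0.12 (SE, limma adjusted p = 0.0440), the smallest among the 6 that passed. Leaving out 1 library ended the call in 6 of 8 fits: the adjusted p was 0.108 without model replicate 1, 0.107 without model replicate 3, and 0.0910, 0.0707, 0.0814 and 0.118 without high dose replicates 1 to 4. Median centring of the libraries ended it too (adjusted p = 0.0649), as did testing genes of low value (adjusted p = 0.0837).

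Tnc encodes tenascin-C, a large oligomeric glycoprotein of developing and injured tissue that interferes with cell adhesion to fibronectin. It had the largest fold change of the 8. Model libraries had 1.69, 2.60, 1.76 and 3.90 FPKM and high dose libraries 17.6, 4.32, 18.3 and 11.0 FPKM. High dose replicate 2 lay close to the model range, while the other 3 lay far above it. The means were 2.49 ± 1.03 and 12.8 ± 6.54 FPKM (SD, n = 4 each), a ratio of 5.15. The log2 fold change was 1.86 ± 0.41 (SE, limma adjusted p = 0.0257), with a 95% interval of 0.93 to 2.80, and 2.24 with a pseudocount of 0.01 in place of 1. The call was lost without model replicate 1 (adjusted p = 0.0709), model replicate 3 (0.07998) and high dose replicates 1 (0.0632), 3 (0.0671) and 4 (0.0607). Without high dose replicate 2 it was 2.27 (adjusted p = 0.01004).

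Tnxb encodes tenascin-X, which organises collagen fibrils and whose loss in humans causes a form of Ehlers-Danlos syndrome. Summed over its rows it had 12.0, 9.38, 9.69 and 9.19 FPKM in model and 9.96, 11.4, 11.1 and 8.84 FPKM in high dose. The groups overlapped throughout. The log2 fold change was 0.03 ± 0.11 (SE, limma adjusted p = 0.888), with a 95% interval of -0.22 to 0.28. The deposited table held 4 rows with this gene name, and no source used here tells how reads were divided among them. The row with the highest mean carried from 35.5% of the sum (model replicate 4) to 65.5% (high dose replicate 4). The next carried 50.5% and 23.0% in the same libraries, so in model replicate 4 it was the larger. With the row of the highest mean alone the log2 fold change was 0.08 (limma adjusted p = 0.825).

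**Figure D2:**
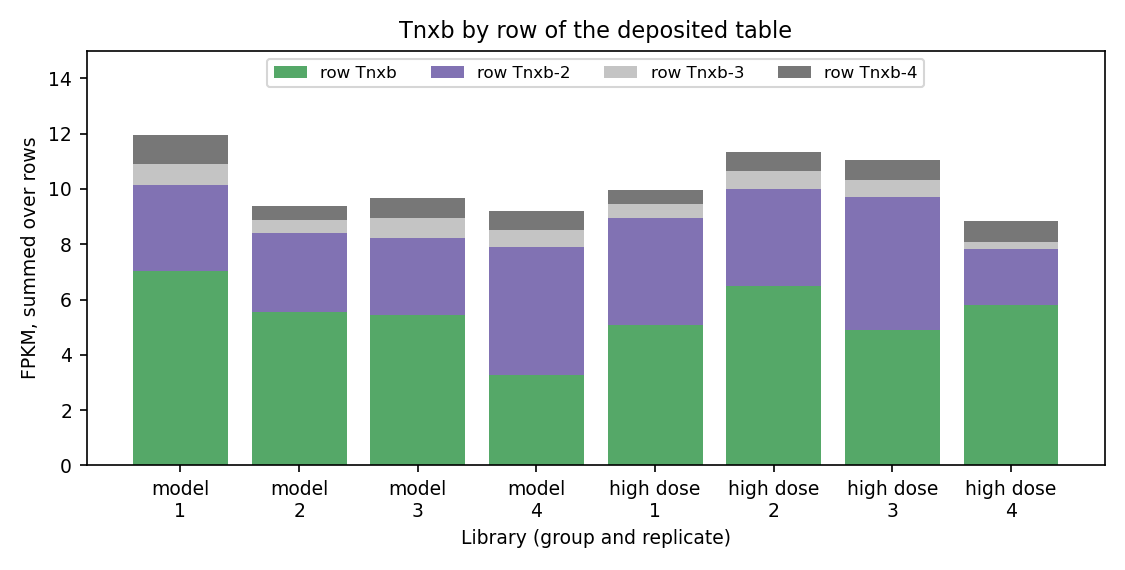
FPKM of Tnxb in each library, stacked by the 4 rows that carry this gene name. The sums lie between 8.84 and 12.0 FPKM in both groups, while the division between the upper rows differs most in model replicate 4 and high dose replicate 4.

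Thbs1 encodes thrombospondin-1, a trimeric glycoprotein that can activate latent TGF-beta and that restrains the growth of blood vessels through the receptor Cd36. Model libraries had 45.0, 40.0, 45.3 and 34.7 FPKM and high dose libraries 92.7, 92.9, 140.2 and 80.5 FPKM. High dose replicate 3 stood above its group, and the other 3 were alike. The means were 41.3 ± 4.98 and 101.6 ± 26.4 FPKM (SD, n = 4 each), a ratio of 2.46. The log2 fold change was 1.255 ± 0.17 (SE, limma adjusted p = 0.00471), with a 95% interval of 0.87 to 1.64, the smallest adjusted p among the 8.

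Thbs2 encodes thrombospondin-2, a close relative that takes part in collagen fibril assembly and does not activate latent TGF-beta. It was the lowest of the 8, with 0.483, 0.811, 0.295 and 2.60 FPKM in model and 2.23, 0.954, 1.10 and 1.26 FPKM in high dose. The 4 high dose libraries lay above model replicates 1 to 3, and model replicate 4 lay above them all. The log2 fold change was 0.32 ± 0.31 (SE, limma adjusted p = 0.584), with a 95% interval of -0.40 to 1.03. Without model replicate 4 it was 0.63, which did not pass either (adjusted p = 0.111), and with a pseudocount of 0.01 it was 0.81 (adjusted p = 0.462). Its mean stood at percentile 2.94 among tested genes.

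Sparc encodes a collagen-binding protein, also called osteonectin, that governs how procollagen is processed at the cell surface. Model libraries had 81.2, 143, 106 and 144 FPKM and high dose libraries 450.1, 250.6, 249.1 and 340.4 FPKM. High dose replicate 1 was the highest and the gap between the groups was wide. The means were 119 ± 30.6 and 323 ± 95.1 FPKM (SD, n = 4 each), a ratio of 2.72 and a log2 fold change of 1.43 ± 0.24 (SE, limma adjusted p = 0.0105).

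Sparcl1 encodes hevin, a SPARC relative that opposes cell adhesion and is made by vessel-associated and other stromal cells. Model libraries had 140.2, 189.7, 178 and 141 FPKM and high dose libraries 278, 240.4, 267 and 256 FPKM. The high dose libraries lay closer together than those of any other of the 8 genes in either group, with an SD of 6.15% of the mean. The means were 162 ± 25.5 and 260.3 ± 16.0 FPKM (SD, n = 4 each), a ratio of 1.61 and a log2 fold change of 0.69 ± 0.12 (SE, limma adjusted p = 0.0113). Fn1, Thbs1, Sparc and Sparcl1 stayed past the threshold in each of the 8 fits that left out 1 library.

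**Figure D3:**
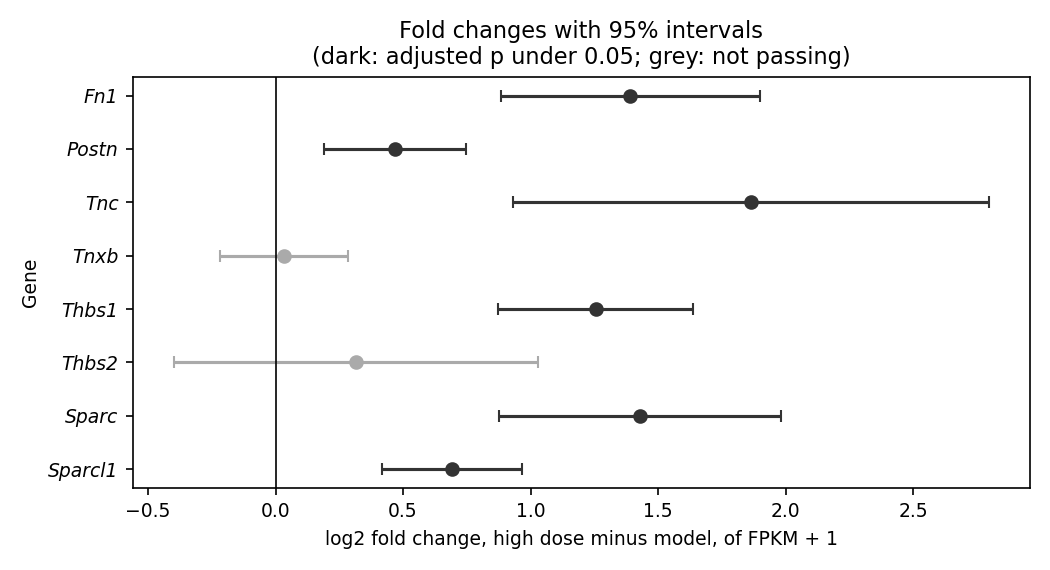
Log2 fold change of FPKM + 1, high dose minus model, for the 8 genes, with 95% intervals from the limma fit. Intervals of the 6 genes that passed (dark) lie above 0, those of Tnxb (-0.22 to 0.28) and Thbs2 (-0.40 to 1.03) include it.

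If the values are FPKM, as was inferred from them, they are scaled by length and levels can also be ranked between the genes. The rank of Tnxb rests on the sum of its 4 rows. In the model libraries the order by mean FPKM was Sparcl1, Sparc, Postn, Fn1, Thbs1, Tnxb, Tnc and Thbs2. The ranges of Sparcl1 and Sparc, of Sparc and Postn, of Fn1 and Thbs1, and of Tnc and Thbs2 overlapped, so those neighbours were not separated beyond their spread. In the high dose libraries Sparc stood first, Fn1 stood above Postn and Tnc above Tnxb, and each of these 3 pairs overlapped, as did Postn and Thbs1. Sparc exceeded Sparcl1 in 3 of 4 high dose libraries and was below it in 3 of 4 model libraries. The summed FPKM of the 8 genes was 388 to 515 in model and 789 to 1128 in high dose.

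Within the groups the genes did not share 1 order of libraries. Model replicate 4 was the highest model library for 5 genes (Fn1, Postn, Tnc, Thbs2 and Sparc) and the lowest for Tnxb and Thbs1. Model replicate 1 was the lowest for 4, Fn1, Tnc, Sparc and Sparcl1. High dose replicate 1 was the highest of its group for Fn1, Thbs2, Sparc and Sparcl1, and high dose replicate 2 was the lowest for 5, all but Tnxb, Thbs1 and Sparc. High dose replicate 2 is the library in which a single row without a gene name took 41.5% of the FPKM sum. After rescaling each library to an equal sum over its named rows the 6 genes that passed were the same, with log2 fold changes of 2.06 for Tnc, 1.403 for Fn1, 1.43 for Sparc, 1.27 for Thbs1, 0.69 for Sparcl1 and 0.47 for Postn.

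Relatives were compared within each library, in 3 pairs set by protein family, to ask whether their changes differed. The ratio of Tnc to Tnxb was 0.141, 0.278, 0.181 and 0.425 in model replicates 1 to 4 and 1.77, 0.381, 1.65 and 1.246 in high dose replicates 1 to 4. With its rows summed, Tnxb was thus the more abundant tenascin in every model library, and Tnc in every high dose library but replicate 2. With the Tnxb row of the highest mean alone, Tnxb had 3.26 FPKM in model replicate 4, below Tnc at 3.90 FPKM. On the log2(FPKM + 1) scale the difference between the relatives moved by 1.83, with 3 of 4 high dose libraries above every model library (two-sided exact permutation p = 0.0571, adjusted p = 0.0857 over the 3 pairs). The ratio of Sparc to Sparcl1 ranged from 0.579 to 1.02 in model and from 0.934 to 1.62 in high dose, a shift of 0.74 (exact permutation p = 0.0571, adjusted p = 0.0857), again with 3 of 4 libraries above the model range. The ratio of Thbs1 to Thbs2 ranged from 13.4 to 154 in model and from 41.7 to 127 in high dose, so the ratio itself overlapped fully. Its shift on the log2(FPKM + 1) scale was 0.94 (exact permutation p = 0.114, adjusted p = 0.114) and 0.46 with a pseudocount of 0.01. With 4 against 4 libraries the smallest p that the 70 splits allow is 0.0286. After adjustment over the 3 pairs, a pair at that smallest p could not pass unless another pair reached it too. None of the 3 pairs passed, which does not show that the relatives changed alike.

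**Figure D4:**
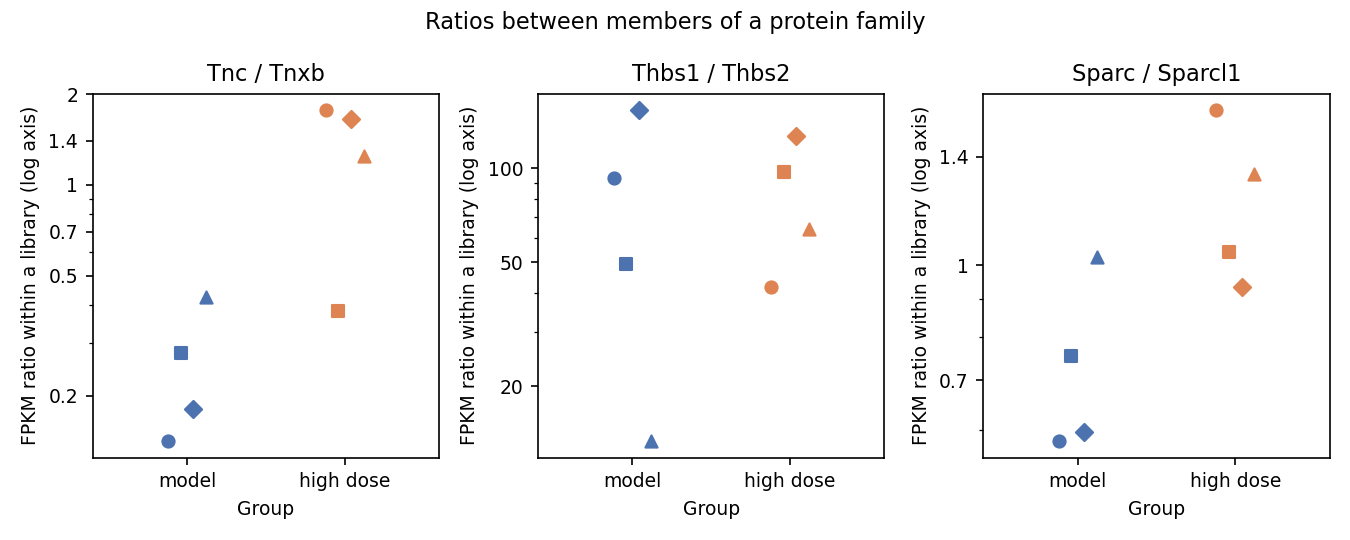
Ratio of FPKM (log axes) between 2 relatives within each library, for the tenascins, the thrombospondins and the SPARC family, with marker shape giving the replicate number. In Tnc / Tnxb, high dose replicate 2, at 0.381, is the only high dose library within the model range of 0.141 to 0.425. In Thbs1 / Thbs2 the model libraries span from 13.4 to 154, wider than the high dose libraries.

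For 5 of the 8 genes RefSeq promoter windows were at hand (build GRCm38.p6, while the values were made on mm39): Postn, Tnc, Tnxb, Thbs2 and Sparc. The 250 bases before the transcription start are shown for 2 genes that rose, Tnc and Postn, and for the 2 that did not pass, Tnxb and Thbs2, so that the gene with the largest rise stands beside its relative. The window shown for Tnc is chr4:64047016-64047265 (minus strand), that for Tnxb chr17:34670285-34670534 (plus strand), that for Postn chr3:54360857-54361106 (plus strand) and that for Thbs2 chr17:14694263-14694512 (minus strand). No exon of GENCODE M21 overlaps them. Each reads 5′ to 3′ along the gene and ends at the base before the start, and capitals mark the matches described after them.
Tnc: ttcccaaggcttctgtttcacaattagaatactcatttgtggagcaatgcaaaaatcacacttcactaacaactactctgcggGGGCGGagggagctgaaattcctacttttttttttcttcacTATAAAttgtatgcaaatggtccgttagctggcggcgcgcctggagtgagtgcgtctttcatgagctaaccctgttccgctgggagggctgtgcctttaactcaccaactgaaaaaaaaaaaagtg
Tnxb: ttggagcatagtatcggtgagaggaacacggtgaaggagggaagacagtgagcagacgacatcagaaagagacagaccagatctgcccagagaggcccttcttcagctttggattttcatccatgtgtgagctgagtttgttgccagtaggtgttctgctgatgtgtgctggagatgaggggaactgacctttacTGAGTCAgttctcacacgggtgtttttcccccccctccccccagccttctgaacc
Postn: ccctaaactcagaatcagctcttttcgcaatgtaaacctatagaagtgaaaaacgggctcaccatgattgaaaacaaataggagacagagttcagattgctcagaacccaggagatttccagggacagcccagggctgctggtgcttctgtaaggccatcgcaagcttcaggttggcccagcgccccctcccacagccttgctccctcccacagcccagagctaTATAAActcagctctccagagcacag
Thbs2: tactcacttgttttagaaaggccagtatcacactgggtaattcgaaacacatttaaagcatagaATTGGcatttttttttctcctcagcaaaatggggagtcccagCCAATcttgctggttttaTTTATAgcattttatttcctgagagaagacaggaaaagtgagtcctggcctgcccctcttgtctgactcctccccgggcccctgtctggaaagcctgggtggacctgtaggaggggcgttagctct

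Both strands were searched for TATAAA (the TATA box), TGACTCA (AP-1), TGACGTCA (CRE), GGAATG (TEAD), GGGCGG (Sp1), CCAAT (NF-Y) and the CArG box, and no 2 of the marked matches overlap. The Tnc window held TATAAA at 126 to 121 bases before the start and GGGCGG at 167 to 162. The Tnxb window held TGACTCA on the opposite strand at 55 to 49 bases before the start, and neither of the matches seen in Tnc. The Postn window held TATAAA at 26 to 21 bases before the start, the usual place of a TATA box. Only exact matches were sought, so near matches, such as tatataa close to the end of a Tnc window not shown, were not counted. The Thbs2 window held TATAAA on the opposite strand at 126 to 121 and CCAAT on either strand, at 186 to 182 and 144 to 140. Of all 32851 windows of 250 bases, 12.4% hold TATAAA, 32.7% GGGCGG, 33.8% CCAAT and 4.46% TGACTCA. The SMAD motif CAGAC, present in 42.2% of windows, is not marked. It was found in the windows of Tnxb, Thbs2 and Sparc and in a second window each of Tnc and Postn, which are not shown, but not in those shown for Tnc and Postn.

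Other genes of the families were looked at from a list of 12, of which 8 were tested. Of these 8, 2 rose, 0 fell and 6 did not pass, with a median log2 fold change of 0.38 against 0.04 for all tested genes, and by limma 3 were higher and 1 lower at an unadjusted p under 0.05. For such unadjusted counts, here and below, the share over all tested genes is not given. By limma an unadjusted p of 0.0488 (Il13ra1, an upstream regulator) had an adjusted p of 0.193. Unadjusted values under 0.05 were thus common among all tested genes. Spock2, a proteoglycan of the SPARC family (testican-2), rose to 114 ± 18.5 FPKM from 55.9 ± 14.6 (SD, n = 4 each; log2 fold change 1.04 ± 0.19, adjusted p = 0.0127). Thbs3, a thrombospondin that forms pentamers, rose from 13.9 ± 2.27 to 21.2 ± 2.72 FPKM (0.58 ± 0.13, adjusted p = 0.0266), a call that held only without model replicate 2 or high dose replicate 3 among the 8 fits that left out 1 library (adjusted p up to 0.0729). Thbs4 showed the pattern of Thbs2: 0.0581, 0.179, 0.0626 and 5.80 FPKM in model and 4.12, 2.02, 1.38 and 3.45 FPKM in high dose. Model replicate 4 again lay above all the others, and the log2 fold change of 1.05 ± 0.60 did not pass (adjusted p = 0.326), but was 1.70 without that library (adjusted p = 0.0123). Tgfbi, the closest relative of periostin, differed in direction from it, with 94.8 ± 26.9 FPKM in model and 56.4 ± 8.40 in high dose. Its log2 fold change, -0.71 ± 0.20, missed the threshold (adjusted p = 0.0631), but passed when model replicate 2 was left out (0.0106). The difference between Tgfbi and Postn was not tested.

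Receptors of the glycoproteins were taken from a list of 20, of which 19 were tested: 5 rose, 0 fell and 14 did not pass (median 0.22), and 7 were higher and 2 lower at an unadjusted p under 0.05 by limma. Itgb6, the subunit of the epithelial integrin that binds fibronectin, tenascin-C and latent TGF-beta, had 5.65, 6.90, 4.38 and 3.41 FPKM in model and 14.99, 12.4, 13.2 and 14.3 FPKM in high dose (1.31 ± 0.17, adjusted p = 0.00443). The groups were wide apart. Sdc1, a cell surface heparan sulfate proteoglycan, rose to 106 ± 7.99 FPKM from 55.9 ± 8.52 (SD, n = 4 each; 0.92 ± 0.12, adjusted p = 0.00419). Its relative Sdc4, which acts with integrins in adhesion to fibronectin, rose by 0.48 ± 0.10 (adjusted p = 0.0228), and Itgb5, a subunit of a vitronectin receptor, by 0.50 ± 0.11 (adjusted p = 0.0266). Those last calls were fragile: without 1 library, Sdc4 was lost on leaving out any of model 1, 3 and 4 or high dose 3 and 4 (highest adjusted p 0.0698) and Itgb5 on leaving out model 1 or 3 or high dose 2 or 4 (highest 0.07001). Itgb1, the common partner of the fibronectin receptors, had 164 ± 17.2 and 203.6 ± 6.47 FPKM, and its log2 fold change of 0.32 missed the threshold (adjusted p = 0.0694) unless model replicate 2 was left out (0.0488). Cd47, a thrombospondin-1 receptor, had -0.39 ± 0.18 (adjusted p = 0.226, and 0.00790 without model replicate 2).

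Matrix molecules that bind these glycoproteins or process them were all tested, 16 of 16: 5 rose, 0 fell and 11 did not pass (median 0.63), and 8 were higher and 0 lower at an unadjusted p under 0.05 by limma. Hspg2, which encodes the basement membrane proteoglycan perlecan, rose to 17.5 ± 2.36 FPKM from 9.60 ± 1.18 (SD, n = 4 each; 0.80 ± 0.12, adjusted p = 0.0064). Emilin1, a glycoprotein of elastic fibres, rose by 0.85 ± 0.16 (adjusted p = 0.0138). Fbln1, fibulin-1, which binds fibronectin, rose by 0.78 ± 0.18 (adjusted p = 0.0286) and Dpt, dermatopontin, by 0.92 ± 0.22 (adjusted p = 0.0297). Fbln1 was lost in 6 fits without 1 library (all but those without model replicate 2 and high dose replicate 1; adjusted p up to 0.0828) and Dpt in 5 (model replicates 1 and 3, high dose replicates 1, 3 and 4; up to 0.0806). The collagen Col1a1, to which fibronectin, periostin and SPARC bind, had 1.51 ± 0.49 and did not pass (adjusted p = 0.0923, and 0.0213 with a log2 fold change of 1.95 without model replicate 4). Col3a1 had 1.59 ± 0.52 (adjusted p = 0.0985, and 0.0203 with 2.08 without that library). Col1a2 had 1.28 ± 0.34 and just missed the threshold (adjusted p = 0.05001). The collagen Col5a1 did pass, rising by 1.05 ± 0.25 (adjusted p = 0.0337) with groups that did not overlap. Fits without 1 library are not given for Col1a2 and Col5a1.

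Adaptors of focal adhesions, through which integrins bound to fibronectin reach actin, had 2 of 12 higher, 0 lower and 10 not passing (median 0.08), and 4 higher and 0 lower at an unadjusted p under 0.05 by limma. The kinase gene Src rose to 19.5 ± 1.45 FPKM from 12.3 ± 1.46 (SD, n = 4 each; 0.63 ± 0.10, adjusted p = 0.00826). Vcl, vinculin, rose by 0.34 ± 0.08 (adjusted p = 0.0259), a call that among the fits without 1 library held only without model replicate 2 (adjusted p up to 0.0696). Of 15 tested upstream regulators, out of 17 listed, 2 rose, 0 fell and 13 did not pass (median 0.16), with 4 higher and 1 lower at an unadjusted p under 0.05 by limma. Tgfb3, a TGF-beta ligand, had 10.4, 12.6, 9.06 and 10.8 FPKM in model and 20.2, 18.9, 17.3 and 18.8 FPKM in high dose (0.77 ± 0.10, adjusted p = 0.00458), and its groups did not overlap. Tgfbr2, the type II receptor, rose by 0.57 ± 0.14 (adjusted p = 0.0344), a call lost in 6 fits without 1 library (all but model replicate 3 and high dose replicate 2; adjusted p up to 0.0983). It was lost with quantile normalization too (adjusted p = 0.0504), and with rescaling over named rows (0.0662). Testing genes of low value as well ended the calls of Tgfbr2 (adjusted p = 0.0703), Thbs3 (0.0583), Itgb5 (0.0567), Fbln1 (0.0618) and Dpt (0.0618). Tgfb1, the ligand most often named with fibrosis, had 45.9 ± 4.97 and 46.5 ± 3.43 FPKM, with a log2 fold change of 0.02 ± 0.10 (adjusted p = 0.920) that was -0.0029 after median centring.

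**Figure D5:**
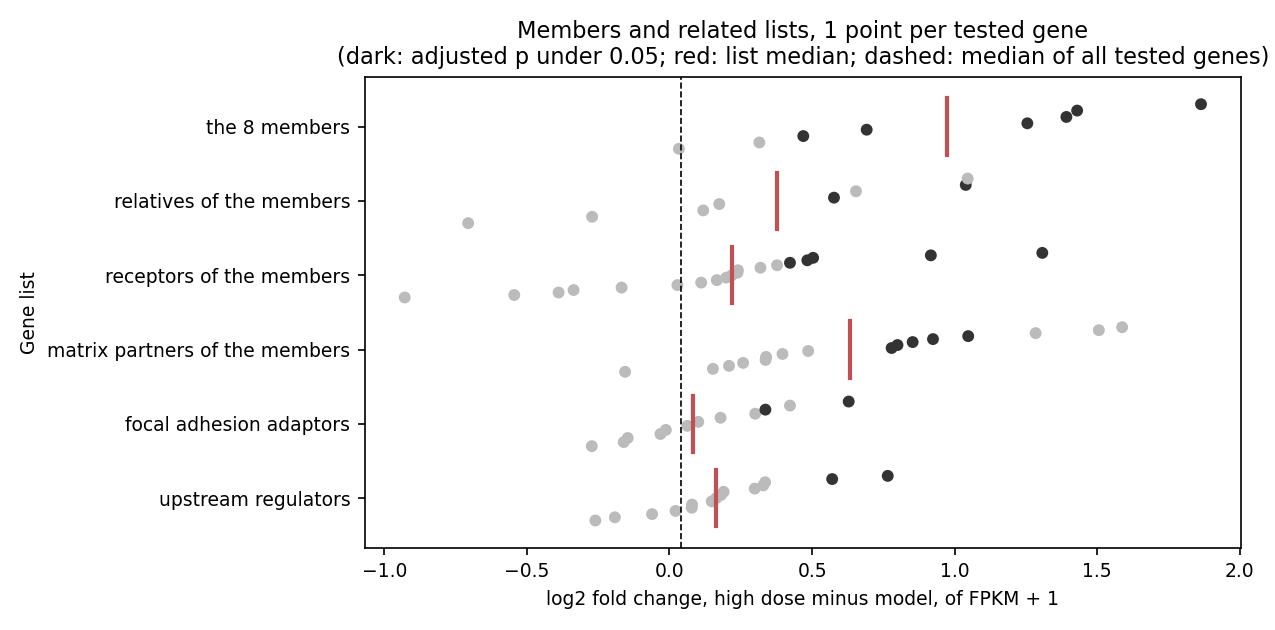
Log2 fold change of FPKM + 1, high dose minus model, for the 8 genes and for 5 related lists, with 1 point per tested gene, dark where the adjusted p is under 0.05. Red lines are list medians, 0.97 for the 8 genes and 0.63 for their matrix partners. The dashed line is the median of all tested genes at 0.04.

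In whole lung RNA, more or fewer cells of a type and more or less RNA per cell cannot be told apart. Of 11 fibroblast markers 2 rose, 0 fell and 9 did not pass, and by limma 6 were higher and 0 lower at an unadjusted p under 0.05. Their median log2 fold change was 0.59, and 3 of them, Col1a1, Col1a2 and Col3a1, are also among the matrix partners. Their summed level was 1293 to 1681 FPKM in model and 1408 to 1942 FPKM in high dose, with Inmt the highest gene in each library. The markers that rose were Pdgfrb, a receptor of fibroblasts and pericytes, by 0.71 ± 0.13 (limma adjusted p = 0.0139), and Npnt, a matrix protein made by alveolar fibroblasts and epithelium, by 0.74 ± 0.17 (adjusted p = 0.0297). Npnt was lost in 6 fits without 1 library (all but model replicate 2 and high dose replicate 3; adjusted p up to 0.0824) and on testing genes of low value (0.0625). Pdgfra, a defining receptor of lung fibroblasts, had 32.3 ± 2.20 and 33.4 ± 3.27 FPKM (SD, n = 4 each). Its log2 fold change was 0.04 ± 0.09 (adjusted p = 0.818). Myofibroblast markers had 0 of 6 tested passing by limma, also at an unadjusted p under 0.05, and summed to 174 to 254 FPKM in model and 198 to 333 FPKM in high dose. Of 8 endothelial markers 0 passed by limma, with 2 higher at an unadjusted p under 0.05, and their sums were 774 to 1023 and 801 to 1091 FPKM. Of 9 pericyte and smooth muscle markers 1 rose, with 2 higher at an unadjusted p under 0.05, and sums were 141 to 234 and 151 to 218 FPKM.

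Markers of some other cell types moved with the comparison. All 7 neutrophil markers fell, their sum being 1068 to 2760 FPKM in model and 113 to 419 FPKM in high dose, and so did all 6 natural killer cell markers (122 to 664 and 28.1 to 46.5 FPKM). Platelets, which store thrombospondin-1, had 1 of 7 markers lower, and 5 of 7 at an unadjusted p under 0.05 by limma (median log2 fold change -0.62), with sums of 77.8 to 168 and 56.3 to 109 FPKM. Alveolar type 2 markers had 2 of 6 higher, and 5 of 6 at an unadjusted p under 0.05, with sums of 10542 to 15697 and 14086 to 20542 FPKM. Adventitial fibroblast markers had 1 of 8 higher and 1 lower, against 3 higher and 2 lower at an unadjusted p under 0.05, with sums of 922 to 1502 and 674 to 896 FPKM. Those sums follow Ly6a, the highest gene of the list in each library and the gene called lower. Ly6a had 857 ± 272 FPKM in model and 380 ± 71.0 FPKM in high dose (SD), while the median log2 fold change of the list was 0.29. Alveolar type 1 markers had 2 of 6 higher (3 at an unadjusted p under 0.05), mesothelial markers 1 of 5 (1), and by limma macrophage markers 0 of 8 in either direction (1 higher at an unadjusted p under 0.05) and cardiac muscle markers 0 of 6 (0 at an unadjusted p under 0.05). No marker of these lists was at 0 in any library. Cartilage markers, of which 4 of 6 were at 0 in some library, summed to 4.05 FPKM at most. Cardiac muscle sums were uneven: 393, 897, 237 and 159 FPKM in model replicates 1 to 4. In high dose replicates 1 to 4 they were 162, 723, 360 and 226 FPKM. Adipocyte markers had 0 of 4 tested passing by limma. Their sums were 13.3, 59.0, 21.0 and 130 FPKM in model and 6.85, 43.3, 41.8 and 9.03 FPKM in high dose. Whether this unevenness bears on calls that changed without model replicate 2 or 4 was not tested. The part of cell composition in the changes of the 8 genes was not tested.

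The genes whose profiles lay closest to each of the 8 were sought over the 8 libraries among 13466 tested genes with a usual symbol. Closeness was the root mean square difference of log2(FPKM + 1) after each gene's mean was removed. Nearest to Fn1 were Gdf15 (0.124), Fbn1 (0.129), which encodes fibrillin-1, and Lcn2 (0.163), against a median distance of 0.768 over all candidates. Gdf15 was low, with means of 1.33 FPKM in model and 5.41 FPKM in high dose. At such levels the added 1 understates changes, so its closeness to Fn1 applies to this scale. Nearest to Thbs1 were Ptges (0.0888), a prostaglandin E synthase, Il33 (0.179), a cytokine, and Hic1 (0.204), with a median of 0.669. The profile of Thbs1 was thus matched most closely by a gene of a level near 5.23 FPKM in model and 13.4 FPKM in high dose. Nearest to Sparc were Adamts2 (0.240), which trims procollagen, Loxl1 (0.262), a lysyl oxidase, and Nnat (0.264), with a median of 0.798. Nearest to Sparcl1 were Heyl (0.0803), a Notch target, Sftpd (0.0879), surfactant protein D, and Prep (0.0927), with a median of 0.398. Tnc had no neighbour as close: Psrc1 (0.386), Mmp2 (0.392), a gelatinase, and Sfrp1 (0.394), with a median of 1.09. For Postn they were Il34 (0.0655), Vwa1 (0.0697) and Pdzk1ip1 (0.0739), for Tnxb Klhl17 (0.0554), Ppp6r2 (0.0568) and Clcn6 (0.0575), and for Thbs2 Cav3 (0.159), Cib2 (0.16999) and Fabp5 (0.178). Their medians were 0.323 for Postn, 0.227 for Tnxb and 0.515 for Thbs2. These distances are descriptions with no test.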

How the data were processed

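The authors deposited 1 table of FPKM values with a column for each of the 8 libraries and 48632 rows, of which 7015 carry no gene name. The header names no unit. FPKM was read from the values, which are decimals with unequal column sums. Per the labels' protocols, libraries were made with a SMARTER kit, and per the submitters' processing notes the genome build was mm39. The aligner, counter and annotation version, and whether counting used strand, are not given in the sources used here. In the RefSeq table of GRCm38.p6 Postn, Tnc and Sparcl1 each overlap a long non-coding RNA gene. Tnxb overlaps a pseudogene and a small nuclear RNA gene. Reads shared with those genes could not be told apart.

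Rows were summed per gene name (1734 names lie on several rows). Genes with a mean of at least 1 FPKM were fitted as log2(FPKM + 1) by limma 3.58.1 (R 4.3.3). The model held group alone, and variances were moderated with a trend and robustly. Two-sided p-values were adjusted by Benjamini-Hochberg over all tested genes, with a threshold of 0.05. Family pairs were compared by exact permutation of libraries. The fit was tested on simulated data. Counts per gene were not recovered, so no count model was used and precision rests on the spread of 4 libraries per group. Relative depth was the most frequent ratio among rows under 0.3 FPKM, within 0.015 on the log scale. Figures were drawn with matplotlib 3.10.9.

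The 8 genes, the lists and the tests were chosen with earlier results of these data known. Named beside the 8 are up to 4 passing genes of each list with the smallest p, and the 3 nearest profiles of each gene. Thbs4, Tgfbi, Itgb1, Cd47, Col1a1, Col1a2, Col3a1, Col5a1, Pdgfra, Pdgfrb, Npnt, Tgfb1, Il13ra1 and Ly6a were named after their values were seen. Same-numbered libraries of the groups did not deviate together in every pair, so the replicate numbers were not treated as pairs. Alternatives were quantile normalization, median centring, rescaling over named rows, moderation with neither trend nor robustness, other filters and pseudocounts, the highest row per name, the replicate block and each library left out.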

Additional observations from a re-analysis of the deposited data

How the results depend on the processing

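Across the 18 alternative fits the number of the 8 genes called higher stayed between 4 and 6, and 0 were called lower. Fn1, Thbs1, Sparc and Sparcl1 passed in all 18, and the calls lost among the 8 were those of Tnc and Postn. With the replicate number as a block 4 of the 8 passed, Tnc (adjusted p = 0.0609) and Postn (adjusted p = 0.0518) missing the threshold. Of the other genes followed through these fits, the block ended the calls of Sdc4 (adjusted p = 0.0615), Itgb5 (0.0574), Dpt (0.0921) and Vcl (0.0584). Col5a1 and Ly6a were not followed. The libraries share only a number: same-numbered libraries had correlations of deviations from 0.276 down to -0.092, and 2 of 4 model libraries correlated best with their own number. Over all tested genes, 845 were higher and 616 lower. Those higher numbered 518 with no filter on low values and 486 with the replicate block. Leaving out 1 library gave 364 to 1176 higher and 336 to 969 lower. Median centring took the share of calls that were higher from 57.8% to 51.6%, and the block to 50.9%. Tnxb, which passed in no fit, had log2 fold changes of -0.012 to 0.11 without 1 library. Those of Pdgfra were -0.0015 to 0.11, and those of Tgfb1 -0.024 to 0.078 and -0.0029 with median centring. The causes were not tested. The family pairs passed in no alternative, with adjusted p of 0.0571 to 0.657, but a single fully separated pair could not have passed alone. The block and the settings of variance and filter were not run for the pairs. Depth in reads is unknown, so no counting error can be given for low genes such as Thbs2.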
